A study of Homo sapiens with 40 samples.

Results

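The 9 genes described here encode 2 inhibitors of the CIP/KIP type (CDKN1B and CDKN1C), 4 inhibitors of the INK4 type (CDKN2A, CDKN2B, CDKN2C and CDKN2D) and the 3 pocket proteins of the retinoblastoma family (RB1, RBL1 and RBL2). They were taken by identifier from the 22069 genes on the array, and all 9 were measured on every array without a filter on low values. Their transcripts were measured on 40 Affymetrix Human WT arrays, in 16 groups. The cell lines were U2OS, an osteosarcoma line, and hTERT-RPE1, retinal pigment epithelial cells from normal tissue made immortal with telomerase. The study calls U2OS p53-proficient but describes weak p53 pathway activity there, which it ascribes to MDM2 overexpression. It describes hTERT-RPE1 as wild type for p53. Both lines were transfected with 15 nM of small interfering RNA (siRNA). On days 1 and 2 each line received control siRNA or siRNA against CASP8AP2, with 3 replicates per group, and on day 3 each line received control siRNA or siRNA against CASP8AP2, NPAT or HINFP, with 2 replicates per group. CASP8AP2, NPAT and HINFP are nuclear factors needed for the production of histone mRNA in S phase. Each siRNA was a pool against 1 gene and the control was a pool with no target in the cell. Duplicates of day 3 came from simultaneous transfections, and their spread may be technical. Cells with fewer transcripts and fewer cells that make a transcript cannot be told apart in RNA from a whole culture.

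The pocket proteins bind E2F transcription factors and hold the genes for DNA synthesis at rest until cyclin-dependent kinases (CDKs) phosphorylate them. INK4 proteins bind CDK4 and CDK6 and keep D cyclins away from them, and CIP/KIP proteins bind complexes of CDKs with cyclins, above all the CDK2 complexes with E and A cyclins. The inhibitors therefore act upstream of the pocket proteins in the G1 phase of the cell cycle. The pocket protein genes differ in their own timing: RBL1 is transcribed mostly in cycling cells, whereas RBL2 is best known from cells that have left the cycle. CDKN2A makes different transcripts from separate first exons, one for the INK4 protein p16 and one for ARF, a regulator of p53, and a single value for the gene does not separate them.

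Sequences before the start sites are shown for the pocket protein gene that fell in U2OS cells, RBL2, for its relative RBL1, and for CDKN2B and CDKN2D, which rose with an siRNA in U2OS cells. They are RefSeq sequences of GRCh38.p14, 250 bases up to the base before the annotated start, 5′ to 3′ on the strand of the gene. The windows are chr16:53434221-53434470 on the plus strand for RBL2, chr20:37095998-37096247 on the minus strand for RBL1, chr9:22009306-22009555 on the minus strand for CDKN2B and chr19:10568980-10569229 on the minus strand for CDKN2D. Capitals mark an E2F motif (TTTCGCGC or TTTGGCGC) or a GC box (GGGCGG), each searched on both strands, and the motifs did not overlap each other in these windows.
RBL1: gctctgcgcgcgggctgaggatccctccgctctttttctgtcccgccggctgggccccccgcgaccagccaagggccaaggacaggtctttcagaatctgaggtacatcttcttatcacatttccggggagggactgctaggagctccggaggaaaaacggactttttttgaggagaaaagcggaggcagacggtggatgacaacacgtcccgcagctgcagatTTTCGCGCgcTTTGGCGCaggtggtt
RBL2: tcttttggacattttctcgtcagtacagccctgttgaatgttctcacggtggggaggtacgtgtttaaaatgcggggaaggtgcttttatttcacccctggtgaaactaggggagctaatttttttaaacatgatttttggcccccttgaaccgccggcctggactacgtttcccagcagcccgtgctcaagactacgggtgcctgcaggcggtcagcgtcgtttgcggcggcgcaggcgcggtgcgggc
CDKN2B: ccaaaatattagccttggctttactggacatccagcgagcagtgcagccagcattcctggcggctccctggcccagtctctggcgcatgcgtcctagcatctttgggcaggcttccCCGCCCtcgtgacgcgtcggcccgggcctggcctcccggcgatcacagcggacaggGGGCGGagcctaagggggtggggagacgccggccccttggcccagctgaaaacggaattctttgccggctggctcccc
CDKN2D: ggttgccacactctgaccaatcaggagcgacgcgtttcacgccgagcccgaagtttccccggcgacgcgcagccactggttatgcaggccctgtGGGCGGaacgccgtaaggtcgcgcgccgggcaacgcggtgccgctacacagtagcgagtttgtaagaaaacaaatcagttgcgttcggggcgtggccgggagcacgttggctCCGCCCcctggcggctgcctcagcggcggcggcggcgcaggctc
The RBL1 window held 2 E2F motifs, which began 26 and 16 bases before the start. It was the 1 window of 12 for the members with this motif, which was found in 0.968% of all 35116 windows of this length. The RBL2 window shown, and the window at the other annotated start of RBL2, held neither motif. GC boxes began 134 and 78 bases before the start of CDKN2B, and 156 and 44 bases before that of CDKN2D. They are common letters, present in 42.6% of all windows and in 6 of the 12. The letters GTAAACA, a motif of FOXO factors, were in none of the 12 windows and in 2.98% of all. A sequence was found for 8 of the 9 members, the exception being CDKN1C, and the RB1 window lies inside the gene and not before its first base. CDKN2A and CDKN2B lie next to each other on chromosome 9.

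The labelled target was lower in every siRNA group. CASP8AP2 was left at 40.6%, 30.1% and 44.3% of control in U2OS cells and at 55.5%, 59.1% and 58.7% in hTERT-RPE1 cells on days 1, 2 and 3. NPAT was left at 33.3% and 40.3%, and HINFP at 32.0% and 48.4%, in U2OS and hTERT-RPE1 cells. Replicates correlated at 0.9946 or higher over all genes, and no 2 arrays were identical. Of 22 marker genes of cell types, 7 could be paired with an identifier. The retinal pigment epithelium markers BEST1 and RLBP1 were at the 21.7 to 32.3 percentile of all genes in both lines, and the bone markers IBSP and COL1A2 at the 19.4 to 36.3 percentile, so these did not tell the lines apart. RUNX2, a transcription factor of bone-forming cells, was lower in U2OS than in hTERT-RPE1 cells (log2 difference −1.80 on day 3). These few markers did not bear out the tissue of origin in the labels.

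Levels are on the log2 scale, on which a difference of 1 is a doubling. They are relative to the other genes on an array, and levels of different genes are not compared because probe sets differ in brightness. The array means were 6.00 to 6.05 on days 1 and 2 and 5.85 to 5.88 on day 3, so these sets were analysed apart and no level was compared between them.

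**Figure D1:**
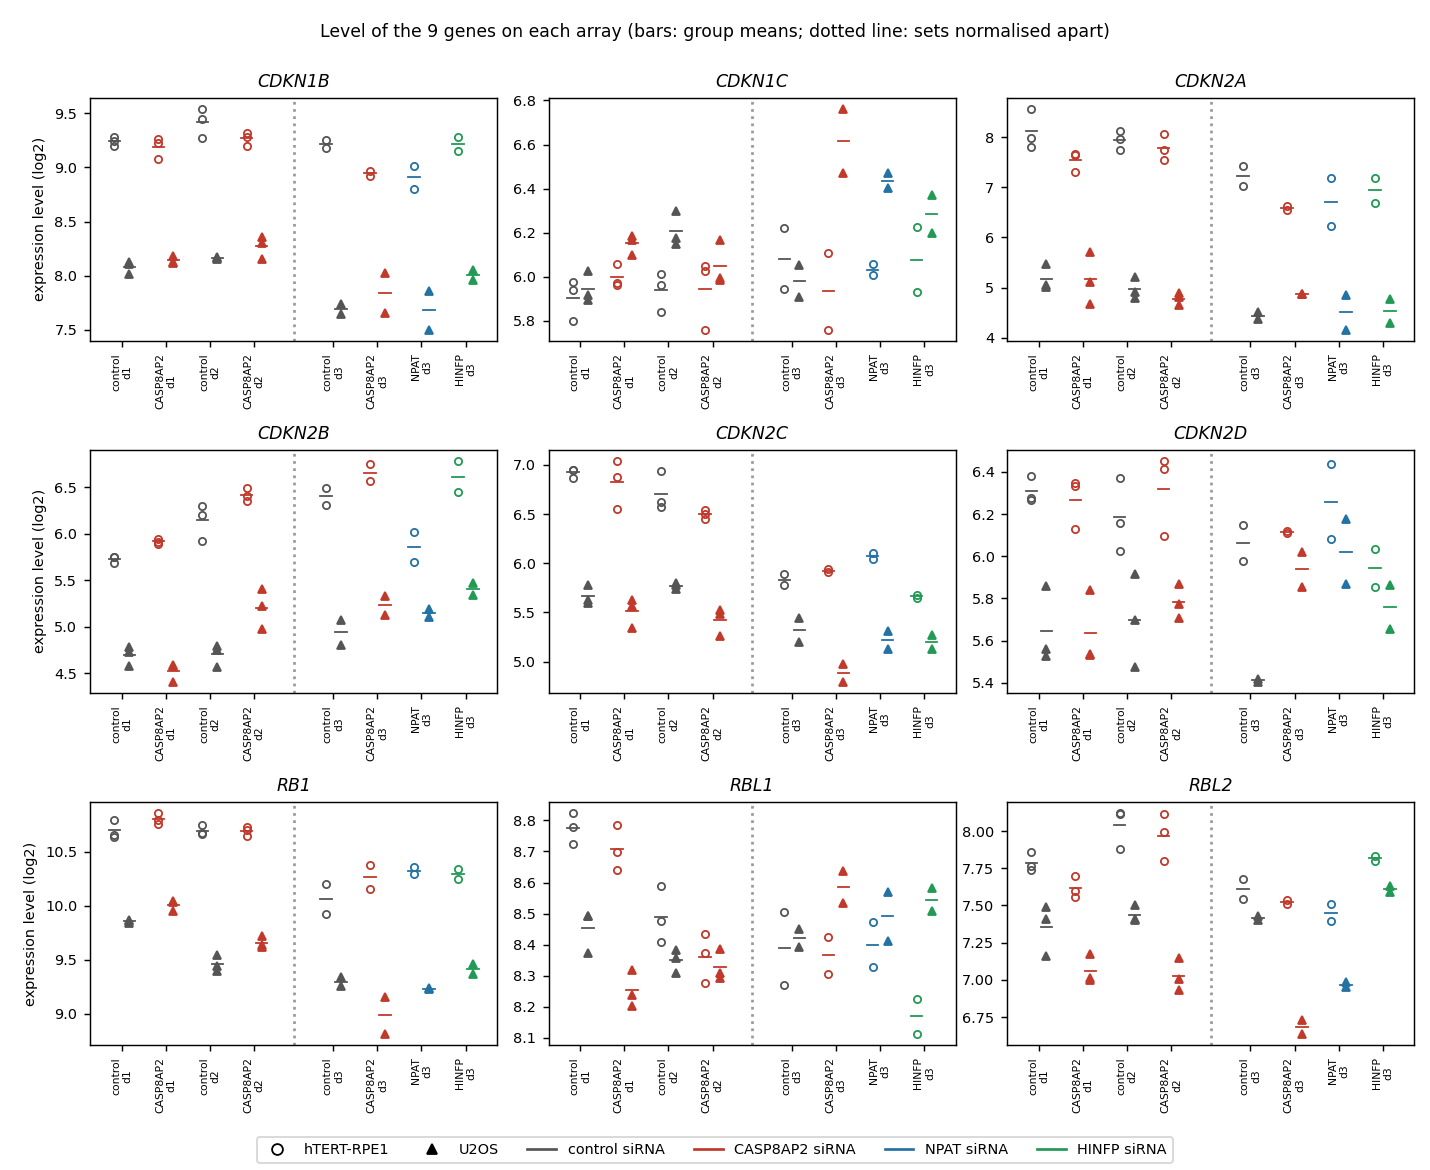
Expression level of each of the 9 genes on each array (y axis, log2), by siRNA and day (x axis), with open circles for hTERT-RPE1, filled triangles for U2OS and short bars for group means. For RBL2 the U2OS arrays with CASP8AP2 siRNA on day 3 lie at 6.64 and 6.73, below both controls at 7.40 and 7.43, and for CDKN2A all U2OS arrays lie below all hTERT-RPE1 arrays of the same set.

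The baseline difference between the lines was measured with control siRNA on each day. Most members were lower in U2OS than in hTERT-RPE1 cells, and CDKN2A was the furthest apart. A member was called when its Benjamini-Hochberg adjusted p over all 22069 genes (limma) was under 0.05. On day 1, 8 of 9 members were called and all 8 were lower in U2OS, where 48.7% of all genes were called and 22.7% were called lower. On day 2, 8 were called, 7 of them lower, against 50.8% of all genes called and 23.7% called lower. On day 3, 6 were called, all lower, against 43.8% and 20.5%. The median difference of the members was −0.84, −0.94 and −0.65 on days 1, 2 and 3, and that of all genes −0.00, −0.03 and −0.04.

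CDKN1B encodes p27, the inhibitor whose protein is removed by the ligase SKP2 as cells enter S phase. Control arrays of hTERT-RPE1 read 9.25, 9.28 and 9.19 on day 1, 9.54, 9.45 and 9.27 on day 2 and 9.18 and 9.25 on day 3. Control arrays of U2OS read 8.11, 8.02 and 8.12, then 8.15, 8.17 and 8.17, and on day 3 7.65 and 7.74. The U2OS arrays were lower throughout with no overlap, and CDKN1B was 2.23-, 2.38- and 2.87-fold lower (adjusted p = 3.61e-12, 8.88e-13 and 7.02e-07). CDKN1C encodes p57, an imprinted inhibitor. Its hTERT-RPE1 controls lay between 5.80 and 6.22 and its U2OS controls between 5.90 and 6.30 over the 3 days. The lines overlapped on days 1 and 3, with log2 differences of 0.04 (95% interval −0.12 to 0.20) and −0.10 (−0.42 to 0.21). On day 2 CDKN1C was higher in U2OS by 0.27 (adjusted p = 0.00569). The call was lost when arrays were centred on their medians (0.11, adjusted p = 0.182) or quantile normalised (0.15, adjusted p = 0.106). It was also lost with a replicate block (0.18, adjusted p = 0.0676), but that fit compared the lines at replicate 1 and not at their means.

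CDKN2A read 7.98, 7.81 and 8.56 in hTERT-RPE1 controls of day 1, 8.13, 7.95 and 7.75 on day 2 and 7.02 and 7.43 on day 3. In U2OS controls it read 5.05, 5.01 and 5.47, then 4.79, 4.91 and 5.22, and on day 3 4.38 and 4.51. All U2OS controls lay more than 2 log2 units below all hTERT-RPE1 controls of the same day. The gene was 7.66-, 7.83- and 6.87-fold lower in U2OS (adjusted p = 1.61e-10, 1.29e-10 and 3e-06). CDKN2B, which encodes p15, an inhibitor induced by TGF-beta, was 2.04-, 2.71- and 2.76-fold lower in U2OS. Its levels were 5.68 to 6.50 in hTERT-RPE1 controls and 4.57 to 5.07 in U2OS controls. CDKN2C encodes p18, and was lower by 1.26, 0.94 and 0.51 on the log2 scale on days 1, 2 and 3. CDKN2D encodes p19, and was lower by 0.66, 0.49 and 0.65. The highest adjusted p of these 9 values for CDKN2B, CDKN2C and CDKN2D was 0.00185, and in none of the 9 did the control arrays of the lines overlap.

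RB1, the founding member of the family, read 10.79, 10.64 and 10.66 in hTERT-RPE1 controls of day 1 and 9.87, 9.86 and 9.84 in U2OS controls. It was 1.79-fold lower in U2OS on day 1, 2.35-fold on day 2 and 1.70-fold on day 3 (adjusted p = 1.69e-11, 2.36e-14 and 0.000166). RBL1 (p107) differed less: the log2 difference was −0.32 on day 1 (adjusted p = 9.65e-05), −0.14 on day 2 (adjusted p = 0.0577) and 0.03 on day 3 (95% interval −0.19 to 0.25, arrays overlapping). On day 2 the RBL1 arrays of the lines did not overlap, and the difference was called after median centring (−0.30, adjusted p = 0.00027), cyclic loess (−0.22, adjusted p = 0.0029), quantile normalisation (−0.15, adjusted p = 0.0404), without dim genes (adjusted p = 0.0445) or without hTERT-RPE1 control replicate 2 (−0.18, adjusted p = 0.0268). RBL2 (p130) was lower in U2OS by 0.43 and 0.60 on the log2 scale on days 1 and 2 (adjusted p = 0.000385 and 7.95e-06). On day 3 the RBL2 difference was −0.20 (adjusted p = 0.066), and it was called after median centring (−0.26, adjusted p = 0.018), cyclic loess (−0.27, adjusted p = 0.0103), quantile normalisation (−0.22, adjusted p = 0.0314) or without hTERT-RPE1 control replicate 1 (−0.26, adjusted p = 0.0386).

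**Figure D2:**
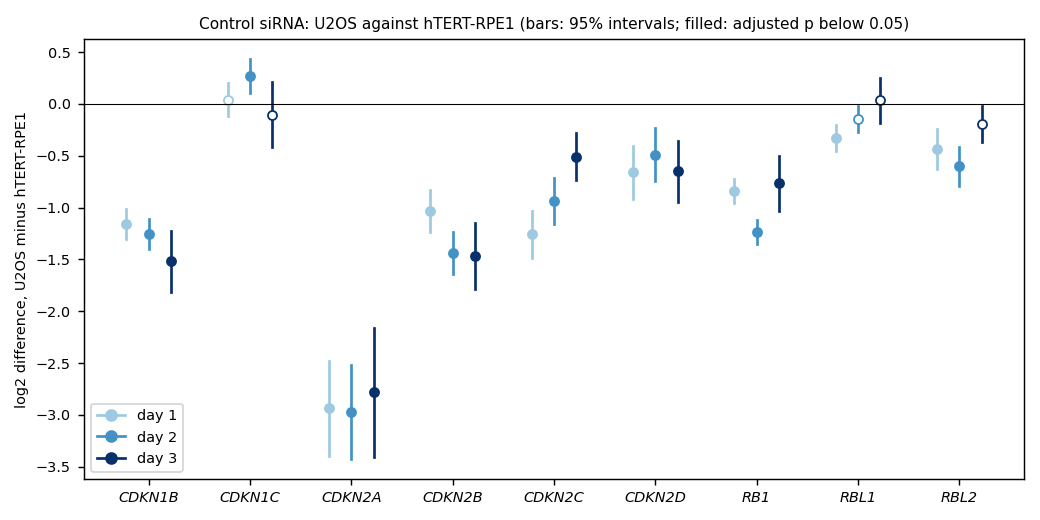
Log2 difference of each gene between U2OS and hTERT-RPE1 cells given control siRNA (y axis), on days 1, 2 and 3, with 95% intervals and filled points where the adjusted p was under 0.05. CDKN2A lies between −2.97 and −2.78 on all 3 days, and CDKN1C and RBL1 lie nearest to 0.

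The controls also differed between day 1 and day 2. In U2OS, where 13.0% of all genes were called, RB1 fell by 0.40 on the log2 scale (adjusted p = 3.28e-05), from 9.87, 9.86 and 9.84 to 9.44, 9.54 and 9.40. CDKN1C rose by 0.26 (adjusted p = 0.0269), a call lost without day 1 replicate 1 or 3 (adjusted p = 0.0967 and 0.0877) or day 2 replicate 2 or 3 (adjusted p = 0.13 and 0.0507), after median centring (adjusted p = 0.0544), after quantile normalisation (adjusted p = 0.068) and with all 40 arrays in 1 fit (adjusted p = 0.0803). In hTERT-RPE1, where 10.0% of all genes were called, CDKN2B rose by 0.41 (adjusted p = 0.00818), from 5.75, 5.75 and 5.68 to 6.20, 6.30 and 5.93, and RBL1 fell by 0.29 (adjusted p = 0.00329). Without day 2 replicate 2 the CDKN2B call was lost (0.34, adjusted p = 0.051). With only the arrays compared in the fit, RB1 in U2OS stayed called, and the calls of CDKN1C, CDKN2B and RBL1 were lost (adjusted p = 0.0516, 0.0714 and 0.0921). The other 14 of 18 differences were not called. Among them, CDKN1B in hTERT-RPE1 (0.18, adjusted p = 0.115) was called without day 2 replicate 3 (0.25, adjusted p = 0.0225), and RBL2 (0.25, adjusted p = 0.0941) without day 2 replicate 1 (0.33, adjusted p = 0.0375).

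The effect of each siRNA was measured against control siRNA of the same line and day. In U2OS cells 10 of 45 member values were called over 5 comparisons, and in hTERT-RPE1 cells 1 of 45. More genes were called in U2OS over the whole array too, 5.87% to 24.9% of all genes in its comparisons against 0.793% to 6.40% in hTERT-RPE1, so these counts alone do not set the members apart. The siRNA groups of day 3 share their 2 control arrays within a line, so their values stand side by side and are not independent of each other.

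On day 1, no member was called with CASP8AP2 siRNA in either line, where 5.87% of all genes were called in U2OS and 0.793% in hTERT-RPE1. At an unadjusted p under 0.05 there were 4 members in U2OS and 1 in hTERT-RPE1. The latter was CDKN2A, with controls at 7.98, 7.81 and 8.56 and siRNA arrays at 7.31, 7.66 and 7.64, which did not overlap (−0.58, interval −1.03 to −0.12, adjusted p = 0.339). Over the 5 hTERT-RPE1 comparisons the CDKN2A differences ran from −0.63 to −0.16 and none was called. The U2OS values nearest to a call were those of RBL1, with controls at 8.49, 8.49 and 8.37 and siRNA arrays at 8.20, 8.24 and 8.32 (difference −0.20, adjusted p = 0.055), and RBL2, with controls at 7.49, 7.16 and 7.41 and siRNA arrays at 7.00, 7.01 and 7.17 (−0.29, adjusted p = 0.0661). The RBL1 arrays did not overlap, and the RBL2 arrays did. Leaving out U2OS control replicate 3 called RBL1 (−0.24, adjusted p = 0.0426), and leaving out control replicate 2 called RBL2 (−0.39, adjusted p = 0.0178). RBL1 was also called after median centring, with a trended and robust variance prior and without dim genes (adjusted p = 0.0365, 0.0405 and 0.0398), and RBL2 with that prior and with all 40 arrays in 1 fit (adjusted p = 0.0483 and 0.0294).

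On day 2, 4 of 9 members were called in U2OS with CASP8AP2 siRNA, against 24.9% of all genes. RBL2 and CDKN2C fell, and CDKN2B and RB1 rose. The median size of the change, without its sign, was 0.19 over the members and 0.12 over all genes. RBL2 read 7.50, 7.41 and 7.40 in controls and 7.01, 7.15 and 6.93 with the siRNA, so that the groups did not overlap. It was left at 75.3% of control (log2 difference −0.41, 95% interval −0.60 to −0.22, adjusted p = 0.00187). CDKN2B read 4.79, 4.75 and 4.57 in controls and 5.22, 4.98 and 5.40 with the siRNA, also without overlap, and rose 1.41-fold (0.50, interval 0.29 to 0.70, adjusted p = 0.000594). These calls of RBL2 and CDKN2B held in every alternative fit and without any 1 array, with adjusted p up to 0.014 for RBL2 and 0.019 for CDKN2B.

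CDKN2C read 5.74, 5.78 and 5.80 in day 2 controls and 5.48, 5.52 and 5.26 with CASP8AP2 siRNA, and fell to 78.4% (−0.35, adjusted p = 0.0198). The call was lost without siRNA replicate 3 (−0.27, adjusted p = 0.113), control replicate 2 (adjusted p = 0.0524) or control replicate 3 (adjusted p = 0.0613). RB1 read 9.44, 9.54 and 9.40 in controls and 9.72, 9.62 and 9.64 with the siRNA, and rose by 0.20 (adjusted p = 0.00939). Its groups did not overlap, and the call was lost without siRNA replicate 1 (0.17, adjusted p = 0.0551), without control replicate 3 (0.17, adjusted p = 0.0559) or with only the compared arrays in the fit (adjusted p = 0.0599). The members not called in U2OS on day 2 ranged from −0.19 for CDKN2A (interval −0.65 to 0.26) to 0.11 for CDKN1B. CDKN1B was called after cyclic loess (0.18, adjusted p = 0.0442) and CDKN1C after quantile normalisation (−0.22, adjusted p = 0.0431).

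In hTERT-RPE1 cells on day 2, where 6.40% of all genes were called, no member was called by limma, and 3 had an unadjusted p under 0.05. CDKN2B was among these 3. It read 6.20, 6.30 and 5.93 in controls and 6.40, 6.49 and 6.36 with CASP8AP2 siRNA, without overlap (0.27, interval 0.07 to 0.48, adjusted p = 0.119). RBL2 was not among the 3. It read 7.88, 8.12 and 8.12 in controls and 8.00, 8.11 and 7.80 with the siRNA, with overlap (−0.07, interval −0.26 to 0.12). The alternative fits called no member on days 1 and 2 in hTERT-RPE1 cells.

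**Figure D3:**
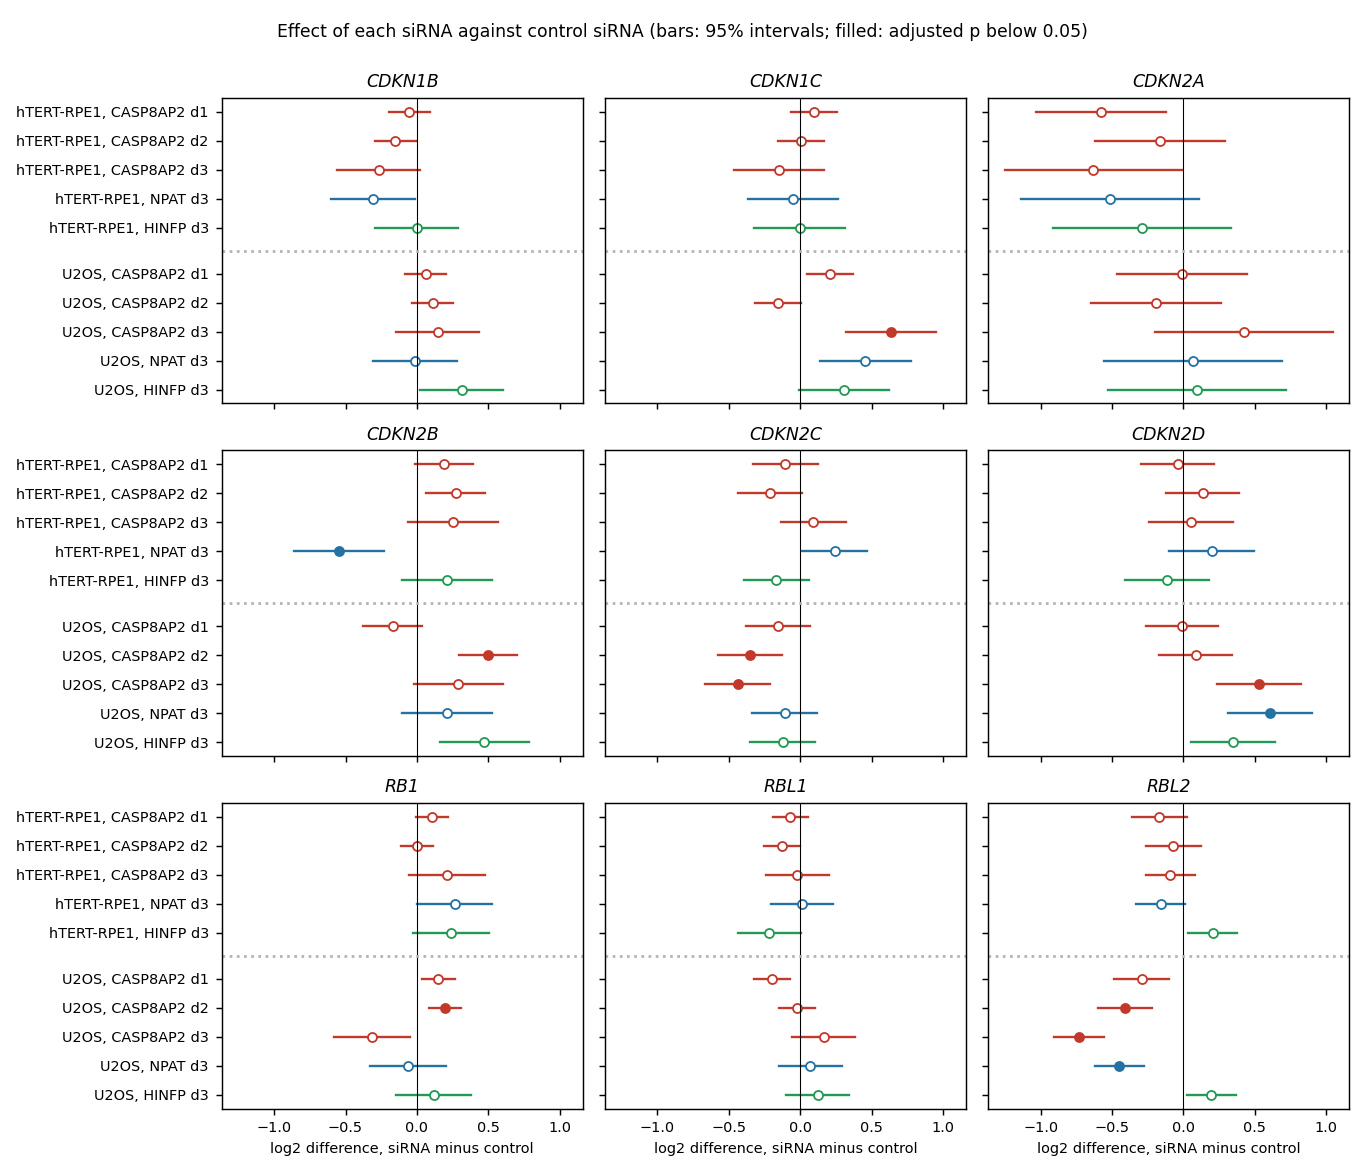
Log2 difference of each gene between an siRNA and control siRNA of the same line and day (x axis), with 95% intervals and filled points where the adjusted p was under 0.05. RBL2 has 3 of the 11 filled points, all in U2OS, at −0.41, −0.73 and −0.45.

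On day 3, CASP8AP2 siRNA in U2OS called 4 of 9 members, against 18.9% of all genes. RBL2 and CDKN2C fell, and CDKN1C and CDKN2D rose. The median size of the change was 0.42 over the members and 0.16 over all genes. RBL2 read 7.43 and 7.40 in controls and 6.64 and 6.73 with the siRNA. Both siRNA arrays were far below both controls, and RBL2 was left at 60.2% of control (−0.73, interval −0.91 to −0.56, adjusted p = 7.64e-05). This call held in every alternative fit and without any 1 array (adjusted p up to 0.011).

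CDKN1C read 6.05 and 5.91 in controls and 6.76 and 6.47 with CASP8AP2 siRNA in U2OS on day 3, and rose 1.55-fold (0.64, adjusted p = 0.00881). CDKN2D read 5.41 and 5.42 in controls and 6.02 and 5.86 with the siRNA, and rose 1.44-fold (0.53, adjusted p = 0.0165). CDKN2C read 5.20 and 5.45 in controls and 4.80 and 4.98 with the siRNA, and fell to 73.9% (−0.44, adjusted p = 0.0116). None of these groups overlapped, and the 3 calls rested on few arrays. Without siRNA replicate 1 the adjusted p was 0.107 for CDKN1C, 0.137 for CDKN2D and 0.121 for CDKN2C, and without control replicate 2 it was 0.0709, 0.0724 and 0.124. Without control replicate 1 CDKN2D was also lost (adjusted p = 0.0819), and with only the compared arrays in the fit CDKN2C was lost (adjusted p = 0.0768).

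RB1 in U2OS on day 3 read 9.26 and 9.33 in controls and 8.81 and 9.15 with CASP8AP2 siRNA, a difference of −0.31 that was not called (interval −0.58 to −0.05, adjusted p = 0.0972). Without siRNA replicate 2 the difference was −0.48 (adjusted p = 0.0228). It was also called with all 40 arrays in 1 fit (adjusted p = 0.00981). CDKN2A read 4.38 and 4.51 in controls and 4.87 on both siRNA arrays. Its difference of 0.42 was not called in the fit of all 8 groups (adjusted p = 0.361) and was called with only the compared arrays in the fit (adjusted p = 0.0439). CDKN2B read 4.80 and 5.07 in controls and 5.13 and 5.33 with the siRNA (0.29, interval −0.02 to 0.60, adjusted p = 0.20).

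NPAT siRNA in U2OS on day 3 called 2 of 9 members, against 8.13% of all genes. RBL2 fell and CDKN2D rose. RBL2 read 6.95 and 6.98 with NPAT siRNA, and was left at 73.3% of control (−0.45, adjusted p = 0.0051). CDKN2D read 6.18 and 5.87 with NPAT siRNA, and rose 1.53-fold (0.61, adjusted p = 0.0165). All 4 of these arrays were outside the range of the controls given above. Without control replicate 1 the adjusted p was 0.0515 for RBL2 and 0.105 for CDKN2D. CDKN2D was also lost without control replicate 2 (adjusted p = 0.0754) and without NPAT replicate 1 (0.46, adjusted p = 0.132). CDKN1C read 6.47 and 6.40 with NPAT siRNA (0.46, adjusted p = 0.0768), and was called with all 40 arrays in 1 fit (adjusted p = 0.00823) and with only the compared arrays (adjusted p = 0.0401).

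HINFP siRNA in U2OS on day 3, where 9.43% of all genes were called, called no member by limma, and 4 had an unadjusted p under 0.05. CDKN2B read 5.35 and 5.48 with HINFP siRNA, above both controls at 4.80 and 5.07, with a difference of 0.47 (interval 0.16 to 0.79, adjusted p = 0.0605). It was called with all 40 arrays in 1 fit (adjusted p = 0.0137), with a replicate block (adjusted p = 0.0495) and without dim genes (adjusted p = 0.05, just under the threshold before rounding). CDKN1B read 7.96 and 8.06 with HINFP siRNA (0.31, adjusted p = 0.187), and was called with all 40 arrays in 1 fit (adjusted p = 0.0438). CDKN2D read 5.66 and 5.86 with HINFP siRNA, above both controls at 5.41 and 5.42 (0.35, interval 0.05 to 0.64, adjusted p = 0.142). RBL2 read 7.59 and 7.63 with HINFP siRNA, above both controls (0.20, interval 0.02 to 0.37, adjusted p = 0.163).

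In hTERT-RPE1 cells on day 3, 6.15% of all genes were called with CASP8AP2 siRNA, 5.04% with NPAT siRNA and 4.15% with HINFP siRNA, and of the members 0, 1 and 0. Beside the counts of 0, 1 member had an unadjusted p under 0.05 with each of CASP8AP2 and HINFP siRNA. The 1 call was CDKN2B with NPAT siRNA, with controls at 6.31 and 6.50 and siRNA arrays at 5.70 and 6.02 (−0.54, adjusted p = 0.0494). The groups did not overlap, and the call was lost without any 1 of the 4 arrays (adjusted p = 0.0719 and 0.211 without control replicates 1 and 2, 0.35 and 0.0545 without NPAT replicates 1 and 2), after median centring (adjusted p = 0.0515), after cyclic loess (adjusted p = 0.0792) and with only the compared arrays (adjusted p = 0.15). RBL2 read 7.55 and 7.68 in controls, 7.53 and 7.51 with CASP8AP2 siRNA, 7.39 and 7.51 with NPAT siRNA and 7.80 and 7.83 with HINFP siRNA. The RBL2 differences were −0.09, −0.16 and 0.20, with intervals from −0.26 to 0.08, −0.33 to 0.01 and 0.03 to 0.38. CDKN2A read 7.02 and 7.43 in controls and 6.56 and 6.63 with CASP8AP2 siRNA (−0.63, adjusted p = 0.247), and its NPAT replicates lay at 6.23 and 7.19. CDKN2A had the widest spread between replicates of the 9 genes in this set.

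Whether an siRNA acted differently in the lines was tested as an interaction, the effect in U2OS minus that in hTERT-RPE1. For CASP8AP2 siRNA on day 3, 3 of 9 members were called, against 9.55% of all genes. For RBL2 the difference of effects was −0.64 (interval −0.89 to −0.40, adjusted p = 0.00488), from −0.73 in U2OS and −0.09 in hTERT-RPE1. For CDKN1C it was 0.78 (adjusted p = 0.0317), from 0.64 and −0.15, and for CDKN2C −0.53 (adjusted p = 0.0425), from −0.44 and 0.09. The RBL2 call held in every alternative fit and without any 1 array (adjusted p up to 0.034). The CDKN1C call was lost without 5 of the 8 arrays in turn and the CDKN2C call without 5 of 8, and both were lost with only the compared arrays in the fit (adjusted p = 0.0854 and 0.104). The arrays were hTERT-RPE1 CASP8AP2 replicate 2, hTERT-RPE1 control replicate 1, U2OS CASP8AP2 replicate 1 and both U2OS controls for CDKN1C (adjusted p 0.0611 to 0.134), and both hTERT-RPE1 CASP8AP2 replicates, hTERT-RPE1 control replicate 2, U2OS CASP8AP2 replicate 1 and U2OS control replicate 2 for CDKN2C (adjusted p 0.0837 to 0.161). CDKN2C was lost also with the trended and robust variance prior (adjusted p = 0.0726). CASP8AP2 itself was left at 44.3% in U2OS and 58.7% in hTERT-RPE1 cells on that day, and the part of this gap in the differences was not tested.

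No member was called in the other interactions by limma, with 1 member under an unadjusted p of 0.05 for CASP8AP2 siRNA on day 1, 3 on day 2, 4 for NPAT siRNA and 2 for HINFP siRNA. Of all genes, 0.689%, 9.39%, 3.46% and 3.15% were called. RBL2 on day 2 had a difference of effects of −0.34 (interval −0.61 to −0.07, adjusted p = 0.114), which was called without hTERT-RPE1 CASP8AP2 replicate 3 (−0.42, adjusted p = 0.0493). CDKN2B with NPAT siRNA had 0.75 (interval 0.31 to 1.20, adjusted p = 0.0645), called with all 40 arrays in 1 fit (adjusted p = 0.0101). RB1 with CASP8AP2 siRNA on day 3 had −0.52 (adjusted p = 0.0771), and was called with all 40 arrays in 1 fit (adjusted p = 0.0045), with the trended and robust prior (adjusted p = 0.0447), without hTERT-RPE1 control replicate 1 (−0.66, adjusted p = 0.0414) and without U2OS CASP8AP2 replicate 2 (−0.69, adjusted p = 0.0212). CDKN2A had the widest interval, 0.17 to 1.93 around 1.05 with CASP8AP2 siRNA on day 3 (adjusted p = 0.123), called with only the compared arrays (adjusted p = 0.0223). On day 2 CDKN1B (0.26, adjusted p = 0.103) and RB1 (0.20, adjusted p = 0.126) were called after cyclic loess (adjusted p = 0.0315 and 0.0494), and CDKN1B also without hTERT-RPE1 control replicate 3 (adjusted p = 0.0255) or U2OS CASP8AP2 replicate 2 (adjusted p = 0.05, just under the threshold before rounding).

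Within each line, day 2 was compared with day 1 for the effect of CASP8AP2 siRNA. In U2OS, where 7.04% of all genes were called, 2 members differed. For CDKN2B the difference of effects was 0.67 (interval 0.38 to 0.96, adjusted p = 0.00456), from −0.17 on day 1, with siRNA arrays at 4.58, 4.41 and 4.59 beside controls at 4.73, 4.58 and 4.78, to 0.50 on day 2. This call held in every alternative fit and without any 1 array (adjusted p up to 0.023). For CDKN1C it was −0.36 (adjusted p = 0.048), from 0.21 on day 1, with siRNA arrays at 6.19, 6.10 and 6.17 and controls at 5.90, 6.03 and 5.92, to −0.16 on day 2, with siRNA arrays at 5.99, 6.17 and 6.00 and controls at 6.15, 6.30 and 6.18. Neither of the single effects was called. The CDKN1C call was lost without any of 10 of the 12 arrays (adjusted p 0.0544 to 0.124; it stayed without U2OS CASP8AP2 day 2 replicate 2 and U2OS control day 1 replicate 2), with all 40 arrays in 1 fit (adjusted p = 0.125), after cyclic loess (adjusted p = 0.0548) and with the trended and robust prior (adjusted p = 0.0746). In hTERT-RPE1, where 0.652% of all genes were called, no member was called by limma and none had an unadjusted p under 0.05. The widest interval there was that of CDKN2A, −0.23 to 1.06.

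**Figure D4:**
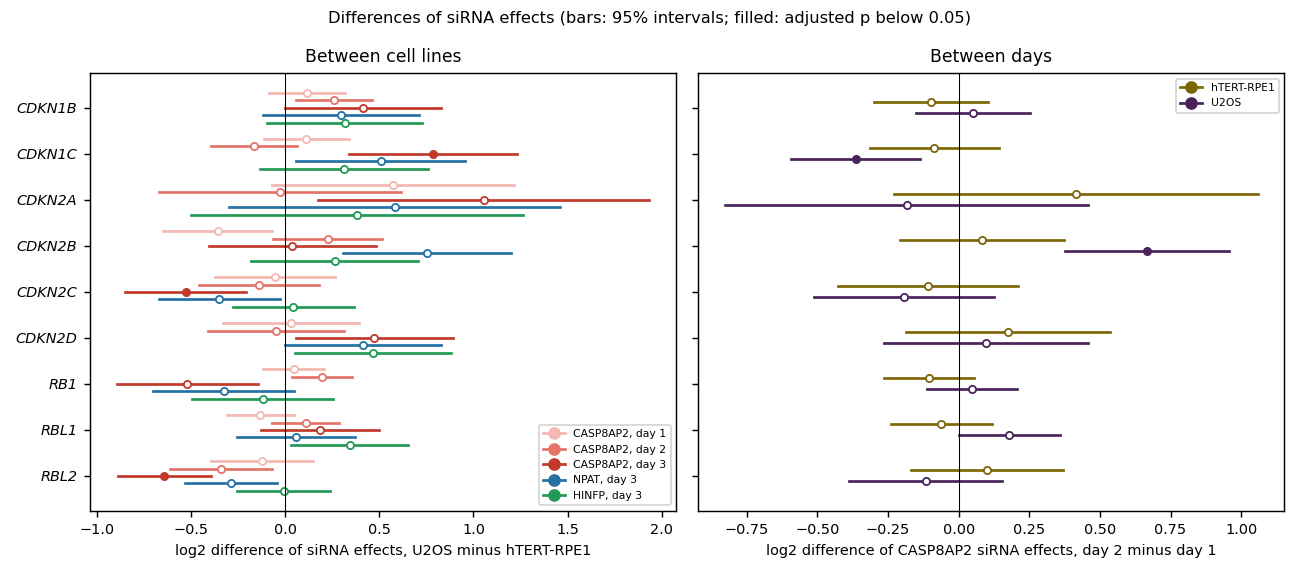
Left, the siRNA effect in U2OS minus that in hTERT-RPE1 cells (x axis, log2), for each day of CASP8AP2 siRNA and, on day 3, for NPAT and HINFP siRNA. Right, the CASP8AP2 siRNA effect on day 2 minus that on day 1 (x axis, log2) in each line. Lines are 95% intervals and filled points have an adjusted p under 0.05. Filled on the left are CDKN1C at 0.78, CDKN2C at −0.53 and RBL2 at −0.64, and on the right CDKN1C at −0.36 and CDKN2B at 0.67, both in U2OS.

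The siRNAs of day 3 were also compared with each other, which leaves the control arrays out of the difference. RBL2 was the member that set HINFP siRNA apart in U2OS. With HINFP siRNA it was 1.90-fold higher than with CASP8AP2 siRNA (0.93, interval 0.75 to 1.1, adjusted p = 5.47e-05) and 1.56-fold higher than with NPAT siRNA (0.64, interval 0.47 to 0.82, adjusted p = 0.000785). It was the 1 member called in each of these comparisons, where 5.60% and 4.04% of all genes were called, and both calls held in every alternative fit and without any 1 array (adjusted p up to 0.033 and 0.045). Between NPAT and CASP8AP2 siRNA in U2OS no member was called by limma, 2 had an unadjusted p under 0.05 and 3.50% of all genes were called. RBL2 was 0.28 higher with NPAT siRNA than with CASP8AP2 siRNA there (interval 0.11 to 0.46, adjusted p = 0.0721). RB1 was 0.43 higher with HINFP than with CASP8AP2 siRNA (adjusted p = 0.0598), and was called after median centring (adjusted p = 0.0453), with all 40 arrays in 1 fit (adjusted p = 0.00155), with the trended and robust prior (adjusted p = 0.0293) and without U2OS CASP8AP2 replicate 2 (0.60, adjusted p = 0.0186).

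In hTERT-RPE1 cells CDKN2B set NPAT siRNA apart. It read 5.70 and 6.02 with NPAT siRNA, 6.57 and 6.75 with CASP8AP2 siRNA and 6.78 and 6.45 with HINFP siRNA, so that both NPAT arrays lay below the 4 others. It was 0.80 lower on the log2 scale with NPAT than with CASP8AP2 siRNA (log2 difference −0.80, adjusted p = 0.0109) and 1.69-fold higher with HINFP than with NPAT siRNA (0.75, adjusted p = 0.0136). The first was lost without CASP8AP2 replicate 2 (−0.71, adjusted p = 0.129) or NPAT replicate 1 (−0.64, adjusted p = 0.157), the second without HINFP replicate 1 (0.59, adjusted p = 0.168) or NPAT replicate 1 (0.59, adjusted p = 0.148), and both with only the compared arrays (adjusted p = 0.0652 and 0.0852). RBL2 was 0.37 higher with HINFP than with NPAT siRNA (adjusted p = 0.0245), a call lost without any 1 of the 4 arrays (adjusted p = 0.15 and 0.109 without HINFP replicates 1 and 2, 0.216 and 0.0678 without NPAT replicates 1 and 2) and with only the compared arrays (adjusted p = 0.111). Of all genes 2.38% were called between NPAT and CASP8AP2 siRNA, 3.63% between HINFP and NPAT siRNA and 3.81% between HINFP and CASP8AP2 siRNA, and in the last no member was called by limma and 2 had an unadjusted p under 0.05. There RBL2 was 0.30 higher with HINFP siRNA (adjusted p = 0.0645), and was called after median centring (adjusted p = 0.044) and quantile normalisation (adjusted p = 0.0373). CDKN2C was 0.41 lower with HINFP than with NPAT siRNA (log2 difference −0.41, adjusted p = 0.0525), and was called with all 40 arrays in 1 fit (adjusted p = 0.0362) and without dim genes (adjusted p = 0.0445).

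The identifiers of the 9 genes on the array were ENSG00000111276_at for CDKN1B, ENSG00000129757_at for CDKN1C, ENSG00000147889_at for CDKN2A, ENSG00000147883_at for CDKN2B, ENSG00000123080_at for CDKN2C, ENSG00000129355_at for CDKN2D, ENSG00000139687_at for RB1, ENSG00000080839_at for RBL1 and ENSG00000103479_at for RBL2. Over the 10 comparisons with control siRNA, RBL2 was called in 3, CDKN2B, CDKN2C and CDKN2D in 2 each, CDKN1C and RB1 in 1 each, and CDKN1B, CDKN2A and RBL1 in none. The lowest adjusted p in those comparisons was 0.187 for CDKN1B, 0.247 for CDKN2A and 0.055 for RBL1. CDKN1B, the inhibitor nearest to the E and A cyclins, ranged from −0.31 with NPAT siRNA in hTERT-RPE1 to 0.31 with HINFP siRNA in U2OS. RBL1 ranged from −0.22 with HINFP siRNA in hTERT-RPE1 to 0.16 with CASP8AP2 siRNA in U2OS on day 3, where RBL2 fell by 0.73 on the log2 scale.

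A list of 44 other genes around these regulators was drawn up. It held cyclins and their partners, E2F and DP factors, the MuvB complex, the ligase for p27 and partners of the pocket proteins. It also held regulators of the INK4 locus, other inhibitors and neighbours of members on the chromosome. KCNQ1 and IGF2, neighbours of CDKN1C, are among the genes counted below. The D cyclins and their partners (0 of 5) and the other inhibitors (0 of 2) could not be paired with an identifier. The counts below therefore do not cover them. Of the 44 genes, 18 could be paired with an identifier. In U2OS with CASP8AP2 siRNA 0 of them rose and 3 fell on day 1, 1 rose and 9 fell on day 2, and 1 rose and 5 fell on day 3, with medians of 0.00, −0.21 and −0.20 against 0.00, −0.01 and 0.02 over all genes, of which 5.87%, 24.9% and 18.9% were called. In hTERT-RPE1 cells 0 rose and 0 fell on day 1, 2 rose and 1 fell on day 2, and 2 rose and 2 fell on day 3, where 0.793%, 6.40% and 6.15% of all genes were called. With NPAT siRNA 2 rose in U2OS and 1 in hTERT-RPE1 cells and none fell, and with HINFP siRNA 1 rose and 1 fell in U2OS and 3 fell in hTERT-RPE1 cells. Of all genes 8.13% and 5.04% were called with NPAT siRNA in U2OS and hTERT-RPE1 cells, and 9.43% and 4.15% with HINFP siRNA. Those called most often in U2OS were CCNA1, the germ-line A cyclin, with CASP8AP2 siRNA 2.13 on day 2 and 3.02 on day 3, E2F2, a target of the pocket proteins, with −0.70 and −0.51, and CUL1, the scaffold of the ligase that removes p27, with −0.15 and −0.46. CCNA1 rose in hTERT-RPE1 cells too, by 2.18 and 3.49, and E2F2 fell there on day 3 by 0.63 with CASP8AP2 siRNA and by 0.72 with HINFP siRNA. Called most often in hTERT-RPE1 cells were CCNE1, cyclin E1, with −0.37 on day 2 and −0.52 on day 3, and MYBL2 (B-Myb), the partner of the MuvB complex, with 0.30 on both days and 0.59 with NPAT siRNA. At baseline CCNE1 was higher in U2OS by 2.65 to 2.77 on the log2 scale.

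The genes whose levels followed each member most closely over the 24 arrays of days 1 and 2 were sought among 1931 genes with a symbol, after the mean of each line was subtracted. These symbols came from the study's siRNA screen tables, including its second screen of selected cell cycle genes. The search thus left out most of the 22069 genes on the array and may favour cell cycle genes. The arrays share siRNA, day and line, so the coefficients are a description. CDKN2C was most like CCNA2 (r = 0.84), cyclin A2, and KIF11 (r = 0.80), a mitotic kinesin. RBL1 was most like KIF14 (r = 0.85) and KIF23 (r = 0.82), both kinesins of cell division. RB1 was most like ADAM12 (r = 0.91). CDKN2B was most like CA11 (r = 0.90) and VAT1 (r = 0.89). CDKN1B was most like EIF3I and LRPAP1 (r = 0.76 for both), and RBL2 was most like SDHA (r = 0.79) and ACCN2 (r = 0.78). CDKN1C was most like GFRA4 (r = 0.65) and IGFALS (r = 0.59), CDKN2A most like SMARCD3 (r = 0.61) and SERPINC1 (r = 0.59), and CDKN2D most like IL1F9 (r = 0.64) and HSD17B10 (r = 0.63).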

How the data were processed

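RNA was extracted with an RNeasy kit and hybridised to Affymetrix Human WT 1.1 arrays. The authors processed the scans with the affy package and a custom probe grouping with 1 probe set per Ensembl gene, and RMA is named in the submitters' processing notes. The deposited values are log2 intensities for 22069 genes. The build of the probe grouping is not given in the sources used here. The 24 arrays of days 1 and 2 and the 16 of day 3 had different means and were fitted apart, each with 8 group means (16 and 8 residual degrees of freedom), in limma 3.58.1 (lmFit, eBayes, R 4.3.3). Tests were two-sided, with Benjamini-Hochberg adjustment over all genes. The procedure was checked on simulated data. Tables and figures were made in Python 3.11.15. Symbols came from identifier columns of the study's siRNA screen tables, which paired 1924 genes. CDKN1A was not paired and is not reported here. All 9 genes were named by rule. The other genes named were those of the list called in the most comparisons with control in each line, and those most like each member (1 of these is not reported here). The members and the lists were chosen with earlier results of these data known. The labels call the replicates biological, and the methods state that day 3 duplicates were transfected together, so p-values may measure technical spread. Alternatives were median centring, cyclic loess, quantile normalisation, leaving out genes under the lower quartile of mean level, a trended and robust variance prior, a replicate block, only the arrays compared, all 40 arrays in 1 fit, and each array left out.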

Additional observations from a re-analysis of the deposited data

Results flagged for a closer look

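The test of a difference between effects was passed by 5 values of the 9 genes. On day 3 CASP8AP2 siRNA had different effects in the lines for CDKN1C (0.78 on the log2 scale, U2OS minus hTERT-RPE1), CDKN2C (-0.53) and RBL2 (-0.64). Between day 1 and day 2 in U2OS, the effect of CASP8AP2 siRNA was different for CDKN1C (-0.36) and CDKN2B (0.67). The CDKN1C value between days was called although neither effect behind it was. As given above, the calls of CDKN1C and CDKN2C were lost without several single arrays and in some other fits. Those of RBL2 and CDKN2B held throughout.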

How the results depend on the processing

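Over 28 comparisons of the 9 genes there were 252 values. In 3564 recomputed values no called value changed sign, 76 calls were lost and 48 were gained, and 153 uncalled values had another sign. The 22 calls between the lines became 21 to 24 in other fits and 22 to 23 with 1 array left out. The 4 calls with CASP8AP2 siRNA on days 1 and 2 became 3 to 6 in other fits and 2 to 5 with 1 array left out (2 without U2OS control day 2 replicate 3). The 7 calls of day 3 became 11 with all 40 arrays in 1 fit and 6 to 8 in the other fits, and 3 to 8 with 1 array left out (4 without U2OS CASP8AP2 replicate 1 or U2OS control replicate 1, 3 without U2OS control replicate 2). The 3 differences between lines became 5 with all 40 arrays in 1 fit and 5 after cyclic loess, and 1 to 4 with 1 array left out (1 without U2OS CASP8AP2 replicate 1, U2OS control replicate 2 or hTERT-RPE1 CASP8AP2 replicate 2). The 2 differences between days became 1 with all 40 arrays in 1 fit, 1 after cyclic loess and 1 with the trended and robust prior, and 1 to 2 with 1 array left out (1 without any of 10 of the 12 U2OS arrays). The 5 calls between siRNAs became 2 with only the arrays compared, and 2 to 6 with 1 array left out (3 without hTERT-RPE1 HINFP replicate 1, 2 without hTERT-RPE1 NPAT replicate 1). The 4 calls between control days became 1 with only the arrays compared, and 3 to 5 with 1 array left out. Where a group was left with 1 array, that array was assumed to vary like the other groups. Median centring moved the median of all genes by -0.16 to -0.06 between the lines, and other scalings by at most 0.03 there. The fit with all 40 arrays takes a spread shared by both sets. The 21 calls between the lines came from the replicate block, which compared the lines at replicate 1 and not at their means.

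Replicate numbers are shared by the groups of a line, and their pairing was not borne out in every group. Correlations of same-numbered arrays ran from -0.10 to 0.07 in the set of days 1 and 2, and on day 3 from -0.12 to 0.21 in hTERT-RPE1. In U2OS on day 3 they ran from -0.02 to 0.17, with 8 of 12 over 0.1. With 2 replicates per group on day 3, both numbers give the same correlation for a pair of groups. The 12 therefore hold each value 2 times and are not 12 separate observations. With the number as a replicate block there were 4 calls with siRNA on days 1 and 2 and 8 on day 3. There were 3 between lines for the siRNA effect, 2 between days, 5 between siRNAs and 4 between control days. The 21 calls between the lines with this block compared replicate 1 of each line, so they do not bear on the difference of means.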
